A study of Mus musculus with 16 samples.

Results

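The anterior and definitive endoderm genes Foxa2, Gsc, Lhx1, Sox17, Gata6, Gata4, Hhex, Cer1 and Dkk1 were followed in cultured mouse pluripotent cells, through 16 libraries of bulk RNA sequencing. They were chosen by name, 9 genes among the 34042 rows of the count table, and 9 of 9 were among the 18555 genes that passed the filter on low counts. Formative stem cells (FS, labelled mFS cells) in A3XR medium gave 6 libraries, 3 from the line 5ar1 (passages p10, p12 and p14) and 3 from the line 5ar3 (p4, p5 and p12). Epiblast stem cells (EpiSCs) were sequenced as the line AF32, grown in AF medium (EpiSC_AF, 3 libraries at p13, p14 and p15), and as the line AFX6, grown in AFX medium (EpiSC_AFX, 3 libraries at p5, p8 and p12). Embryonic stem cells (ES) came from E14IV-C, grown in 2iL, with 4 libraries at p12, p13, p15 and p20. The labels give the media by these codes and name no transgene, drug treatment or age. Outside FS each condition was 1 line, so line and medium cannot be told apart. Every AFX6 library was of an earlier passage than every AF32 library, so between these lines passage cannot be told apart either. Because replicates were passages, p-values measure the spread between passages. Except where the FS lines were compared, FS was 1 group, so that spread also held the difference between 5ar1 and 5ar3.

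The 9 genes act around gastrulation, when Nodal signalling in the primitive streak directs cells toward mesoderm and endoderm. Foxa2, Gsc and Lhx1 mark the anterior streak and its derivatives, the node, the head process and the definitive endoderm from which the gut forms. Sox17, Gata4, Gata6 and Hhex are transcription factors of endoderm, and several of them also act in the extraembryonic primitive and visceral endoderm. Cer1 and Dkk1 encode secreted proteins that block Nodal, BMP or Wnt signals and so protect the anterior epiblast. EpiSCs are related to the late epiblast and are known to contain cells that express such genes, while naive ES cells resemble the preimplantation epiblast and formative cells a stage between these states.

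Promoters were available for 6 of the 9 genes. The 3 printed here belong to the member with the highest level in AF32 (Cer1), to the member with the highest mean level in ES (Gsc) and to the secreted Wnt antagonist (Dkk1). Each runs 5′ to 3′ on the gene's strand from 250 bases before to 50 after the RefSeq start site (GRCm38.p6), and capitals mark exact matches to searched motifs. Cer1 lies at chr4:82885102-82885401, Gsc at chr12:104473187-104473486 and Dkk1 at chr19:30549447-30549746, each on the minus strand.
Cer1: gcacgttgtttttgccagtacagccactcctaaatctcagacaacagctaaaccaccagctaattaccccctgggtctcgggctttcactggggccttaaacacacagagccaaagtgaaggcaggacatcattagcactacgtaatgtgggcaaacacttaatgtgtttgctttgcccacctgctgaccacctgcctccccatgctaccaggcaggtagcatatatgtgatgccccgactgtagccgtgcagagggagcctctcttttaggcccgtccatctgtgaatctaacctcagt
Gsc: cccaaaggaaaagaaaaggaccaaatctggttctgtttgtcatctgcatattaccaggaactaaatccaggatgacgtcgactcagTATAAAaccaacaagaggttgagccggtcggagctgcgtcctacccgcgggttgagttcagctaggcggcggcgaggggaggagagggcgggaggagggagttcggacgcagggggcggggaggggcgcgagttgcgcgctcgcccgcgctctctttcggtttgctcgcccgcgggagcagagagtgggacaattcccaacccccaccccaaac
Dkk1: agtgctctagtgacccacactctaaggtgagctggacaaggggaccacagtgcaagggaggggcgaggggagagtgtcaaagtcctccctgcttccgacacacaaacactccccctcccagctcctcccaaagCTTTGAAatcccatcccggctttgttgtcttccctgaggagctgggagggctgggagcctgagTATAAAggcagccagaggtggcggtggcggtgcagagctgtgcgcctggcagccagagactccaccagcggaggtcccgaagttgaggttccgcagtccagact

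The motifs were searched on both strands in all 32851 promoters of this length. They were FOXH1 (AATCCACA, in 0.855% of promoters), T-box (TCACACC, 3.98%), bicoid-type homeodomain (TAATCC, 7.06%), FOXA (TGTTTAC, 3.65%), SMAD (GTCTAGAC, 0.213%), TCF/LEF (CTTTGAA, 5.14%) and a TATA box (TATAAA, 13.6%), the last added after the sequences had been seen. The Dkk1 promoter held a TCF/LEF match from -117 to -111 and a TATA match from -54 to -49, counted from the start site. The Gsc promoter held a TATA match from -164 to -159, and 1 of the 3 Foxa2 promoters held one from -208 to -203 on the opposite strand. None of these letters occurred in the windows of Cer1, Lhx1 and Hhex, which says nothing about binding of the factors.

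Total counts ran from 22069338 to 33290250 per library, and the mitochondrial rRNA gene mt-Rnr2 took 9.96% to 38.1% of them, the highest share in ES p12. Levels are given as CPM, the usual count normalised to library size, here after TMM scaling of the libraries. A count of 0 allows up to 3 counts, which is 0.0956 to 0.207 CPM depending on the library, and such floors cover counting error only. Naive genes such as Zfp42 and Esrrb summed to 2142 to 3335 CPM in ES and to 4.29 to 12.6 CPM elsewhere, and the formative and primed genes Fgf5, Otx2, Pou3f1 and Dnmt3b together to 833.5 to 2246 CPM in FS and 944.9 to 1279 CPM in EpiSC_AF against 39.6 to 102.8 CPM in ES.

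The forkhead factor Foxa2, which opens chromatin in the node, notochord and endoderm, was read at 23.5, 66.0 and 28.3 CPM in AF32 p13, p14 and p15. In AFX6 it was at 1.71, 0.475 and 12.9 CPM in p5, p8 and p12. In FS it was at 0.185, 0.0637 and 0.169 CPM in 5ar1 p10, p12 and p14, and at 2.21, 4.0 and 2.44 CPM in 5ar3 p4, p5 and p12. Foxa2 thus separated the FS lines, and AFX6 p12 lay between 5ar3 and AF32, while AFX6 p5 and p8 lay within the FS range. The ES libraries p12, p13, p15 and p20 held 0.207, 0.0903, 0 and 0.213 CPM, at most 5 counts each. Foxa2 lies at chr2:148042877-148046969 on the minus strand of GRCm38.

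Gsc (goosecoid), a homeodomain repressor of the organiser, was at 10.1, 37.1 and 23.7 CPM in AF32 p13, p14 and p15 and at 0.250, 0.305 and 6.48 CPM in AFX6 p5, p8 and p12. FS held 0, 0.255 and 0.813 CPM in 5ar1 p10, p12 and p14, and 0.958, 2.36 and 2.36 CPM in 5ar3 p4, p5 and p12. The ES libraries read 4.01, 7.5, 7.34 and 6.93 CPM in p12, p13, p15 and p20. Gsc was the member with the clearest ES level: all 4 ES libraries were above all 6 FS libraries, and 3 of them were above AFX6 p12. The gene spans chr12:104471209-104473330.

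Lhx1, a LIM homeodomain factor needed for the head organiser, reached 48.1, 156.7 and 93.3 CPM in AF32 p13, p14 and p15, and 0.464, 0.339 and 23.1 CPM in AFX6 p5, p8 and p12. In FS it was at 0.0741, 0.128 and 0.203 CPM in 5ar1 p10, p12 and p14, and at 1.62, 0.518 and 1.52 CPM in 5ar3 p4, p5 and p12. In ES a single count was found, in p20 (0.0425 CPM), and 0 in the other 3 libraries. The 3 AF32 libraries and AFX6 p12 were thus the 4 highest, and ES was at the floor. Lhx1 lies at chr11:84518284-84525535.

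Sox17, the HMG-box factor that directs definitive endoderm formation, was at 22.2, 60.8 and 34.1 CPM in AF32 p13, p14 and p15. AFX6 p12 held 13.1 CPM, while p5 and p8 held 0.0714 and 0.102 CPM, 2 and 3 counts. FS libraries held 0.148, 0 and 0.102 CPM in 5ar1 p10, p12 and p14, and 0.295, 0.424 and 0.495 CPM in 5ar3 p4, p5 and p12. Outside AF32 and AFX6 p12 no library held more than 13 counts of Sox17. ES held 0.138, 0.0452, 0.456 and 0.170 CPM in p12, p13, p15 and p20, within the FS range. Sox17 spans chr1:4490931-4497354 and shares 804 exon bases with Gm37587 on the other strand, and whether the counting used strand is not given in the sources used here. Gm37587 had 12, 32, 13 and 10 counts in AF32 p13, p14, p15 and AFX6 p12 and 0 in the other 12 libraries.

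Gata6 and Gata4 are zinc-finger factors of primitive endoderm, later endoderm and heart. Gata6 was at 9.0, 31.3 and 16.7 CPM in AF32 p13, p14 and p15, and at 0.214, 0.0678 and 6.75 CPM in AFX6 p5, p8 and p12. In FS it was at 0.445, 0.0319 and 0.0339 CPM in 5ar1 p10, p12 and p14, and at 0.774, 0.471 and 0.609 CPM in 5ar3 p4, p5 and p12. ES held 0.207, 0, 0.137 and 0.213 CPM in p12, p13, p15 and p20, at most 5 counts. Gata6 hence followed Sox17, with AF32 and AFX6 p12 above all other libraries. It lies at chr18:11052064-11085635, and 93 of its exon bases are shared with the opposite-strand 1010001N08Rik, whose counts were 1, 32, 12 and 11 in AF32 p13, p14, p15 and AFX6 p12 and at most 1 elsewhere.

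Gata4 was at 2.89, 11.7 and 4.95 CPM in AF32 p13, p14 and p15, and at 0.179, 0.170 and 4.93 CPM in AFX6 p5, p8 and p12. FS held 0.111, 0.287 and 0.305 CPM in 5ar1 p10, p12 and p14, and 0.811, 0.565 and 0.266 CPM in 5ar3 p4, p5 and p12. The ES libraries held 1.24, 0.677, 0.592 and 1.19 CPM in p12, p13, p15 and p20. Gata4 was the one member for which AFX6 p12 fell inside the AF32 range, and the one for which the FS lines overlapped. It spans chr14:63198922-63271692.

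Hhex, a homeodomain factor of the anterior visceral and anterior definitive endoderm that is later needed for liver and thyroid, was at 7.36, 20.7 and 8.95 CPM in AF32 p13, p14 and p15. AFX6 p5, p8 and p12 held 1.61, 0.983 and 7.19 CPM. FS held 0.222, 0.223 and 0.0677 CPM in 5ar1 p10, p12 and p14, and 1.84, 0.895 and 0.533 CPM in 5ar3 p4, p5 and p12. Like Gsc, Hhex was read in every ES library above every FS library. The ES values were 2.35, 4.79, 4.65 and 5.32 CPM in p12, p13, p15 and p20. Hhex lies at chr19:37434810-37440731.

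Of the secreted antagonists, Cer1 (cerberus), which binds Nodal and BMP ligands, was read at 134.3, 374.7 and 235.0 CPM in AF32 p13, p14 and p15. In AFX6 it was at 2.00, 0.407 and 91.0 CPM in p5, p8 and p12. In FS it was at 0.185, 0.0319 and 0.0677 CPM in 5ar1 p10, p12 and p14, and at 1.36, 1.41 and 3.39 CPM in 5ar3 p4, p5 and p12. Its raw counts were the highest of the 9 genes, 11463 in AF32 p14 and 2697 in AFX6 p12, against at most 2 in any ES library. ES held 0.0691, 0.0903, 0 and 0.0425 CPM in p12, p13, p15 and p20. The gene lies at chr4:82881751-82885148.

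Dkk1, which blocks Wnt signalling at its LRP co-receptors, was at 29.6, 64.3 and 20.9 CPM in AF32 p13, p14 and p15, and at 0.393, 0.203 and 16.1 CPM in AFX6 p5, p8 and p12. In FS it was at 0, 0.128 and 0.0677 CPM in 5ar1 p10, p12 and p14, and at 0.442, 1.51 and 0.685 CPM in 5ar3 p4, p5 and p12. ES held 0.484, 2.17, 1.55 and 0.978 CPM in p12, p13, p15 and p20. Dkk1 in ES lay in the range of 5ar3 or just above it, and above all 5ar1 libraries. It spans chr19:30545863-30549665.

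**Figure D1:**
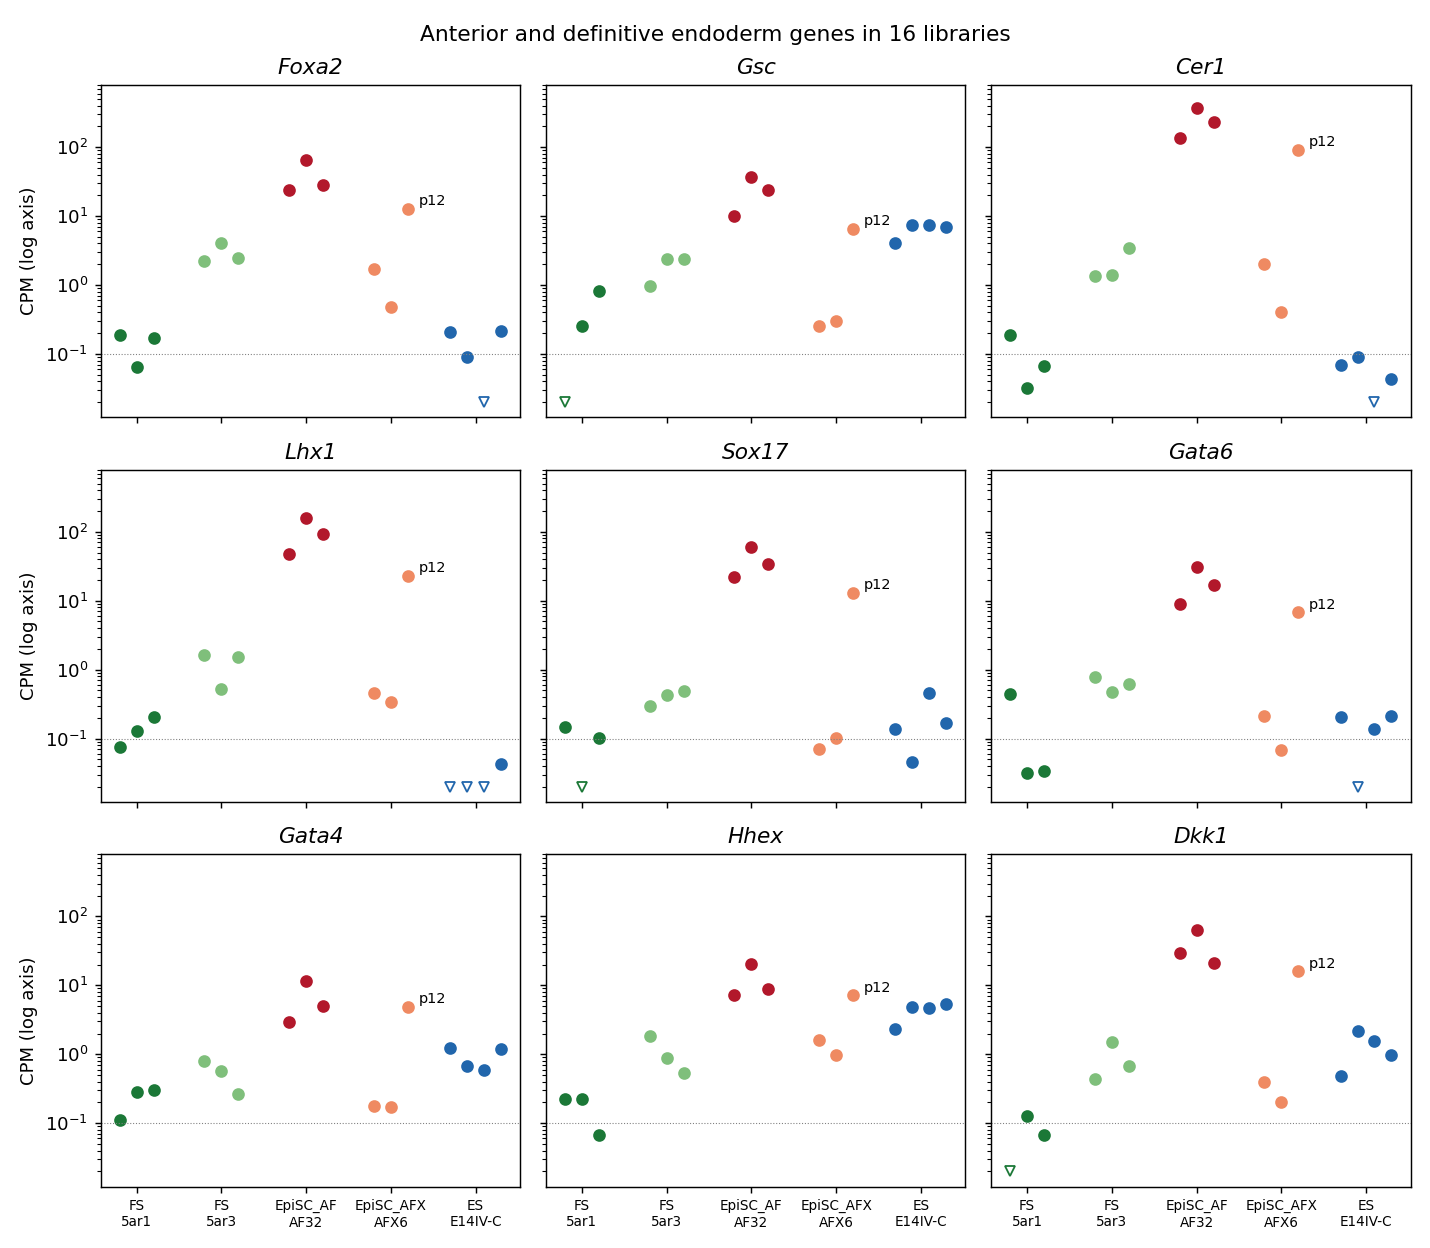
Each panel plots the level of 1 gene in CPM (log axis) in 16 libraries, grouped by line and condition and ordered by passage within a line; open triangles mark 0 counts and the dotted line is 0.1 CPM. The 3 AF32 libraries are above all FS and ES libraries in every panel, and AFX6 p12 stands apart from AFX6 p5 and p8.

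The genes differed in level. Per kilobase of exon in AF32, Cer1 was at 142.6 ± 69.4 CPM per kb (SD, n = 3), followed by Lhx1 at 24.4 ± 13.4, Gsc at 18.7 ± 10.7, Foxa2 at 16.6 ± 9.81 and Dkk1 at 15.8 CPM per kb. Sox17 was at 8.18 ± 4.15 CPM per kb, and Gata6 (2.92), Hhex (2.44) and Gata4 (1.67) were lowest. Cer1 was therefore the most abundant. The means of Lhx1, Gsc, Foxa2 and Dkk1 differed by less than their SDs. All 9 genes were highest in p14, so the SDs hold this shared shift and say nothing on the order of genes within a library.

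Within AF32 the 9 genes were higher together in one passage. AF32 p14 had the highest level of all 16 libraries for 9 of 9 genes, against 4.85% of all tested genes. It was singled out from these genes' own values, so the shares given here are descriptive. All AF32 libraries were already above all FS libraries for 9 of 9 genes, against 11.1% of all tested genes. The shares over all genes are therefore no matched baseline for an order within AF32. For 8 of 9 the order was p14, p15, p13, with Dkk1 the exception, against 14.8% of all tested genes. The level in p14 was 2.17 (Dkk1) to 4.03 (Gata4) times that in p13, with a median ratio of 2.82. The summed level of the 9 genes was 287.2, 823.3 and 466.0 CPM in p13, p14 and p15. In bulk RNA a change in the share of expressing cells and a change in RNA per cell cannot be told apart.

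Whether formative cells express these genes less than primed EpiSCs was addressed by comparing FS with EpiSC_AF. All 9 genes were lower in FS, with no overlap between the 6 FS and 3 EpiSC_AF libraries for any of them. Cer1 averaged 1.08 ± 1.30 CPM in FS (SD, n = 6) against 248 ± 121 in EpiSC_AF (SD, n = 3), Lhx1 0.678 ± 0.7101 against 99.4 ± 54.5, and Sox17 0.244 ± 0.193 against 39.0 ± 19.8. The 9 genes passed edgeR's quasi-likelihood test, 9 of 9 against 16.6% of all tested genes in either direction and 8.81% in this direction, and the count of 9 without overlap stands against 11.1% of all genes. The members' median log2 fold change was -5.61 and that of all tested genes 0.04.

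The largest difference was that of Cer1, at -7.88 (SE 1.22, edgeR adjusted p = 0.000334), followed by Sox17 at -7.36 (SE 1.10, adjusted p = 0.000252) and Lhx1 at -7.20 (SE 1.04, adjusted p = 0.000185). Dkk1 differed by -6.42, Gata6 by -5.61, Foxa2 by -4.73, Gsc by -4.42, Hhex by -4.30 and Gata4 by -4.06 on the log2 scale. The adjusted p-values of these 6 genes lay between 0.000368 (Hhex) and 0.00261 (Gsc). The size depended on the FS line. Against 5ar1 alone Cer1 differed by -11.3 and Foxa2 by -8.12, and against 5ar3 alone by -6.90 and -3.77. All 9 genes were called in both cases, against 17.5% and 17.6% of all tested genes. Cer1 had 1 to 5 counts and Foxa2 2 to 5 in the 5ar1 libraries, so the 5ar1 values are no measure of size.

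Markers of other cell types also differed between these groups, where 8.81% of all tested genes were called lower and 7.84% higher in FS. Of 7 fibroblast genes, which would mark feeder cells, 6 were tested, of which 4 were lower and 1 higher in FS. Their summed level was 32.98 to 79.4 CPM in EpiSC_AF and 17.3 to 34.4 CPM in FS. Much of it in FS was Thy1, at a mean of 13.2 CPM against 1.07 CPM in EpiSC_AF. Within AF32 the fibroblast sum ran against the 9 genes, at 79.4, 32.98 and 53.2 CPM in p13, p14 and p15. Of 15 primitive and visceral endoderm genes, 11 were tested and 7 of them were lower in FS. The summed level of that list, much of it Lrp2, Sparc and Lamb1, was 808.1 to 1362 CPM in EpiSC_AF and 733.5 to 1468 CPM in FS. Of 7 mesoderm genes 4 were tested and 3 of these were lower in FS, with summed levels of 6.24 to 15.8 CPM in EpiSC_AF and 0.643 to 2.76 CPM in FS. The visceral endoderm genes Ttr and Afp had at most 2 and 6 counts in any library. The part of these cell types in the members' differences was not tested.

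AFX6 p12 stood apart from the other libraries of its condition. It was singled out from the values of these same genes, so the shares given here are descriptive and no test of it. For 9 of 9 genes it was above AFX6 p5 and p8 and above every FS library, against 8.27% of all tested genes. For 8 of 9, all but Gata4, it was also below every AF32 library, against 1.76% of all tested genes. Its level was 23.3% (Lhx1) to 75.7% (Gata4) of the AF32 mean, with a median of 35.5%. The corresponding medians of p5 and p8 were 1.06% and 0.531%, and both libraries lay within the FS range for 9 of 9 genes, as they did for 58.6% of all tested genes. Across the 3 AFX6 libraries the summed level of the 9 genes was 6.89, 3.05 and 181.4 CPM in p5, p8 and p12, and for 7 of 9 genes p5 was above p8.

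The mean of EpiSC_AFX combined these levels. Against EpiSC_AF, 0 of 9 genes were called by edgeR (4.26% of all tested genes, 2.83% lower) and 0 by DESeq2's Wald test (7.46%). For 8 of 9, all but Gata4, the libraries did not overlap, against 17.9% of all genes in this direction. By edgeR 8 of 9 had an unadjusted p under 0.05, a rule for which the share of all genes was not counted. The log2 fold changes lay between -3.64 (Lhx1, SE 1.14, adjusted p = 0.0897) and -1.88 (Gata4, SE 0.896, adjusted p = 0.287), with a median of -2.99 against 0 for all genes. AFX6 p12 was set aside because of these genes' own levels. Calls and p-values without it, here and in the comparisons below, are therefore descriptive. Without AFX6 p12 the remaining 2 libraries were lower than EpiSC_AF for 9 of 9 genes by the same test, against 4.83% of all tested genes called in that fit. They were p5 and p8, against p13 to p15 in AF32, so early passage cannot be told apart from line and medium there. The change was then -7.94 for Lhx1 (adjusted p = 0.000471), -7.69 for Cer1 (0.00258) and -3.25 for Hhex (0.0436). Sox17 was at 2 and 3 counts in those libraries, so its fitted change is no measure of size.

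The comparison of FS with EpiSC_AFX also changed with this library. With all libraries Cer1 (-4.89, SE 1.13, adjusted p = 0.02), Sox17 (-4.22, SE 1.08, adjusted p = 0.0331) and Lhx1 (-3.57, SE 0.988, adjusted p = 0.0482) were lower in FS, which is 3 of 9 members against 5% of all tested genes in either direction and 2.1% in this one. The other 6 genes had values from -3.64 (Dkk1, adjusted p = 0.0582) to -1.09 (Gsc, adjusted p = 0.606). Without AFX6 p12 edgeR called 0 of 9 (2.84% of all tested genes), and 7 of 9 had the opposite sign. An unadjusted p under 0.05 was found for 0, and the share of all genes under that rule was not counted. Cer1 then differed by -0.19 (adjusted p = 0.959), Sox17 by 1.38 (0.56) and Lhx1 by 0.73 (0.764). The 3 calls also rested on single FS libraries: leaving out 5ar1 p10, p12 or p14 left 1 call each, that of Cer1. The call of Lhx1 was lost without any 1 of the 6 FS libraries and that of Sox17 without 4 of them, at adjusted p-values of 0.0509 to 0.0841 and 0.0531 to 0.0608.

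**Figure D2:**
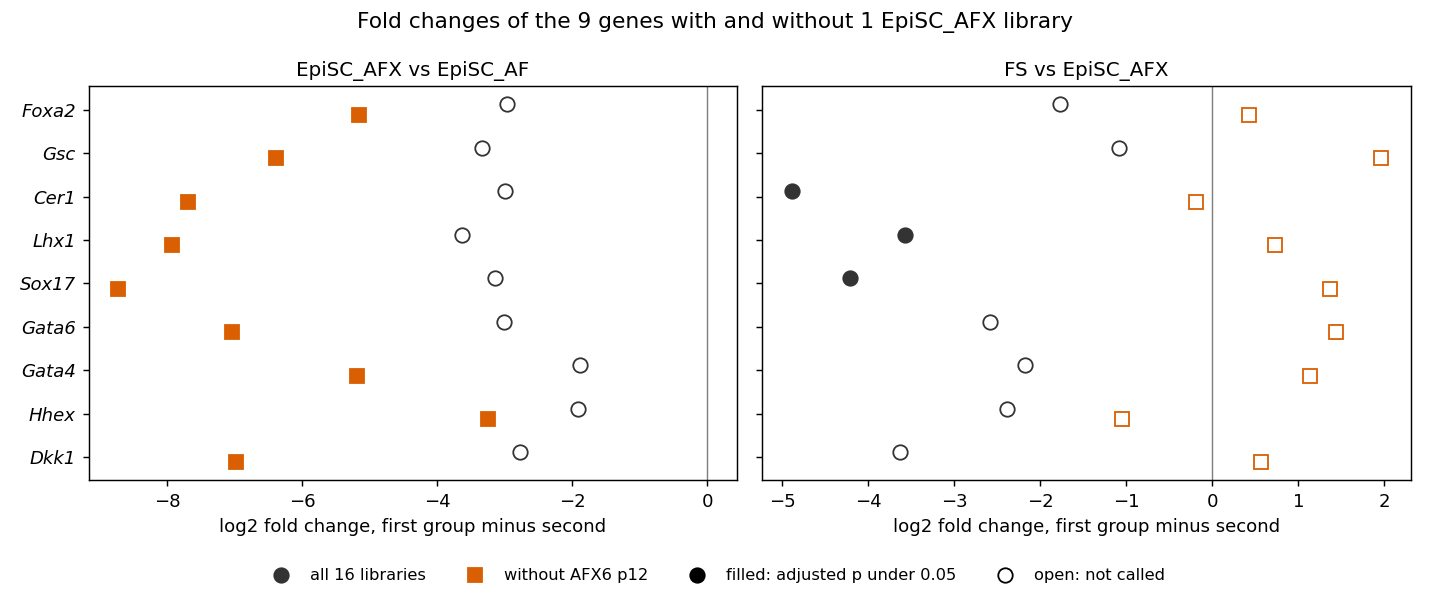
Log2 fold change (x axis) of each of the 9 genes for EpiSC_AFX against EpiSC_AF and for FS against EpiSC_AFX, with all 16 libraries (circles) and without AFX6 p12 (squares); filled symbols have an edgeR adjusted p under 0.05. Without that library, set aside because of these genes' own levels, all 9 squares at left are filled and lie further from 0. All 9 at right are open and 7 are above 0. The Sox17 squares rest on 2 and 3 counts in EpiSC_AFX.

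Markers of other cell types were set beside the difference between AFX6 libraries. The fibroblast genes summed to 14.1, 12.3 and 20.4 CPM in p5, p8 and p12, and the primitive and visceral endoderm list to 534.2, 686.4 and 541.4 CPM. The mesoderm genes summed to 1.29, 1.12 and 3.64 CPM. In the endoderm list Hnf4a had 0, 0 and 72 counts and Apoa1 3, 7 and 70 counts in p5, p8 and p12. Afp was at 0 and Ttr at 1 count in p12. Pdgfra was also higher in p12, at 6.3 times p5 and 8.3 times p8. Other genes of the list went the other way: p12 was at 0.59 and 0.49 times p5 and p8 for Lrp2, and 0.35 and 0.53 times for Cubn. The genes named here were chosen after their values were seen. mt-Rnr2 took 14.95%, 25.02% and 18.9% of the counts, and total counts were 25683808, 33290250 and 28154434. Depth and mt-Rnr2 in p12 thus lay between the other 2 libraries, and the part of the cell types was not tested.

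Between the FS lines, 8 of 9 genes, all but Gata4, were higher in every 5ar3 library than in every 5ar1 library, against 10.4% of all tested genes without overlap in this direction. For Gata6 this rests on the scaling: 0.445 CPM in 5ar1 p10 was 12 counts, and 0.471 CPM in 5ar3 p5 was 10 counts. Gsc was also close, at 24 counts in 5ar1 p14 and 26 in 5ar3 p4. The summed level was 1.37, 1.15 and 1.83 CPM in 5ar1 p10, p12 and p14 and 10.3, 12.2 and 12.3 CPM in 5ar3 p4, p5 and p12. The test called 1 of 9 genes (3.88% of all tested genes, 2.02% lower): Foxa2 was lower in 5ar1, at -4.34 (SE 1.09, adjusted p = 0.037), with 0.139 ± 0.0661 CPM in 5ar1 and 2.88 ± 0.977 CPM in 5ar3 (SD, n = 3 each). Hhex differed by -2.65 (adjusted p = 0.092) and Cer1 by -4.43 (adjusted p = 0.259). The call of Foxa2 was lost without any 1 of 5ar1 p10, p12, p14 or 5ar3 p4, p5, at adjusted p-values of 0.0643 to 0.151. Even in 5ar3 the levels were 0.522% to 14.9% of the AF32 mean. Of 4 neural genes, 2 were also lower in 5ar1, against 2.02% of all tested genes. The summed level of the 4 was 61.6 to 76.75 CPM in 5ar1 and 109.4 to 126.3 CPM in 5ar3. The neural factor Sox1 was at 1.19, 1.31 and 1.05 CPM in 5ar1 p10, p12 and p14 and at 27.3, 22.9 and 18.5 CPM in 5ar3 p4, p5 and p12. The fibroblast genes summed to 17.3 to 22.8 CPM in 5ar1 and 26.8 to 34.4 CPM in 5ar3. Much of this was Thy1, at means of 10.2 and 16.3 CPM. Of 6 fibroblast genes tested, 1 was called, higher in 5ar1 (1.86% of all tested genes). The part of neural or fibroblast cells was not tested.

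In ES cells Gsc and Hhex were read above the FS level, Gata4 and Dkk1 at low levels, and the other 5 genes at or near 0. Gsc averaged 6.44 ± 1.64 CPM in ES (SD, n = 4) against 1.12 ± 1.02 in FS (SD, n = 6), and Hhex 4.28 CPM against 0.631. For these 2 genes the ES and FS libraries did not overlap. That is 2 of 9 members, close to the 22% of all tested genes in this direction. Lhx1 did not overlap in the other direction (24.4% of all tested genes), with at least 2 counts in FS libraries and at most 1 in ES. Gsc and Hhex were lower in FS by the edgeR test, at -2.55 (SE 0.838, adjusted p = 0.0145) and -2.78 (SE 0.659, adjusted p = 0.0014). Foxa2 was higher in FS by 3.54 (SE 1.41, adjusted p = 0.0384). These 3 of 9 stand against 62.8% of all tested genes called between FS and ES. The call of Foxa2 was lost without any 1 of 7 libraries, the 3 of 5ar3 and the 4 of ES, at adjusted p-values of 0.0613 to 0.096. Against 5ar1 alone Foxa2 differed from ES by 0.15, with at most 5 counts in any library of 5ar1 or ES.

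EpiSC_AF exceeded ES for 9 of 9 genes without overlap (32.5% of all tested genes), and 7 of 9 were called, all higher in EpiSC_AF (56.7% of all tested genes in either direction, 29.7% higher). Cer1 was at least 1634-fold and Lhx1 at least 655-fold higher, since both were at or under 3 counts in every ES library. Foxa2 was higher by 8.27 (SE 1.45), Sox17 by 7.53 (SE 1.35), Gata6 by 7.09 (SE 1.31), Dkk1 by 4.85 (SE 1.17) and Gata4 by 2.82 (SE 0.860) on the log2 scale. Gsc (1.87, adjusted p = 0.0987) and Hhex (1.52, adjusted p = 0.0792) were not called. Without AF32 p14 Gata4 was not called either (adjusted p = 0.0684).

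For EpiSC_AFX against ES, 5 of 9 genes were called, all higher in EpiSC_AFX (54.7% of all tested genes, 28.5% higher). They were Cer1 (at least 205-fold), Lhx1 (at least 52.6-fold), Foxa2 (5.30, SE 1.43), Sox17 (4.39, SE 1.32) and Gata6 (4.07, SE 1.30). Without AFX6 p12 the calls of 4 of these 5 genes were lost, those of Lhx1 (4.58, edgeR adjusted p = 0.0517), Foxa2 (3.10, 0.0876), Sox17 (-1.20, 0.406) and Gata6 (0.05, 0.98). Cer1 was still called (adjusted p = 0.0405), but in p5 and p8 the bound was at least 7.93-fold for Cer1 and at least 2.65-fold for Lhx1. In that fit 3 of 9 members were called (47% of all tested genes), the other 2 being lower in EpiSC_AFX, Gsc at -4.52 (adjusted p = 0.00304) and Gata4 at -2.37 (adjusted p = 0.0178). All of these comparisons draw on shared libraries, so their counts are not independent of each other.

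The make-up of the 9 genes' counts also differed between lines. Cer1 gave 45.5% to 50.4% of these counts in AF32 and 50.1% in AFX6 p12 (Wilson 95% interval 48.8% to 51.5%), against 0 to 0.794% in ES. In ES Gsc gave 45.9% to 49.8% and Hhex 27.0% to 35.2%, while in AF32 they gave 3.53% to 5.10% and 1.92% to 2.56%. The share of Cer1 in AFX6 p12 was thus within the AF32 range, but not every share was. Lhx1 gave 12.8% of these counts in AFX6 p12 against 16.8% to 20% in AF32, Hhex 3.96% against 1.92% to 2.56%, and Gata4 2.71% against 1.01% to 1.42%. In AFX6 p5 and p8 the summed counts were only 193 and 90, and in 5ar1 36 to 54, so shares there are loosely determined.

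**Figure D3:**
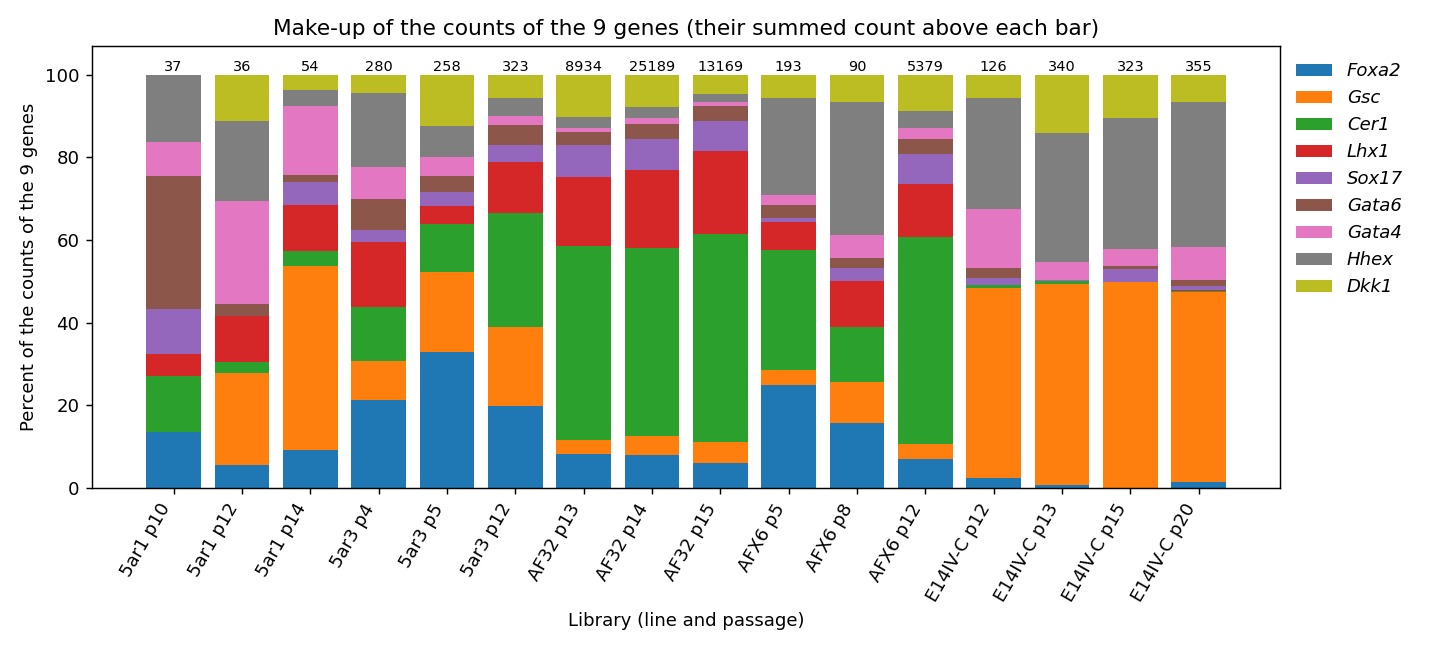
Stacked bars give the percent that each gene contributes to the summed raw counts of the 9 genes in each library, with that sum printed above the bar. Cer1 (green) fills 45.5% to 50.4% of the AF32 bars and 50.1% of AFX6 p12, and Gsc and Hhex fill most of the ES bars.

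Other genes of the same programmes were read from lists, and those named were chosen after their values were seen. Of 10 further endoderm and mesendoderm genes 9 were tested. Of these, 8 were lower in FS than in EpiSC_AF, against 8.81% of all tested genes. The T-box factor Eomes, which acts upstream of endoderm formation, fell by only 1.22 (adjusted p = 0.0222), with 15.5 to 45.3 CPM in FS and 35.3 to 125.7 CPM in EpiSC_AF. Mixl1, a homeodomain factor of the streak, differed by -6.46 (adjusted p = 2.15e-06), and Cxcr4, a chemokine receptor used to sort definitive endoderm, by -3.80 (adjusted p = 0.00241). The median over the list was -3.89, against 0.04 for all genes. Kit and Prdm1, which germ cells also express, were highest in ES, at 300.6 to 462.7 and 18.5 to 27.0 CPM.

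Members of these lists did not all follow the 9 genes into AFX6 p12. Cxcr4 was at 0.9997, 0.746 and 18.4 CPM in AFX6 p5, p8 and p12, Frzb, a secreted Wnt antagonist, at 0.857, 0.170 and 6.81 CPM, and Cfc1, a Nodal co-receptor, at 0.179, 0.237 and 9.92 CPM. In these 3 genes p12 was thus above p5 and p8, as for the 9 members. Nodal itself was at 36.5, 35.9 and 33.5 CPM and the co-receptor Tdgf1 at 230.0, 170.9 and 193.1 CPM, so neither was raised in p12. T (brachyury), a streak and mesoderm factor, reached 3.96, 0.644 and 12.99 CPM there against 33.3 to 136.1 CPM in AF32, and Mixl1 0.893, 0.542 and 2.13 CPM against 8.36 to 36.9. In AFX6 p12 T was at 13.9% and Mixl1 at 11.1% of their AF32 means, below the 23.3% to 75.7% of the 9 members.

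Of 15 antagonist and organiser genes, 7 were lower and 1 higher in FS than in EpiSC_AF. Over all tested genes 8.81% were lower and 7.84% higher. Lefty1, a Nodal antagonist and target, differed by -3.94 (adjusted p = 0.000423) and Chrd, the BMP antagonist chordin, by -3.63 (adjusted p = 3.78e-05), while Dkk3 was higher by 4.22 (adjusted p = 7.35e-05). Of 15 genes of the Nodal and Wnt pathways, 7 were lower and 1 higher in FS, against the same shares of all tested genes. Nodal differed by -1.85 (adjusted p = 0.0363), Tdgf1 by -4.24 (adjusted p = 0.00051) and Cfc1 by -8.415 (adjusted p = 5.94e-05), and Foxh1 was higher by 0.57 (adjusted p = 0.0174). The receptors Acvr1b, Acvr2a and Acvr2b and the signal transducers Smad2, Smad3 and Smad4 were not called between FS and EpiSC_AF. Between the FS lines Nodal ran against the 9 genes: it was higher in 5ar1 by 2.12 (adjusted p = 0.0274), at 7.45, 9.21 and 21.3 CPM in 5ar1 p10, p12 and p14 and 0.811, 1.70 and 6.20 CPM in 5ar3 p4, p5 and p12.

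**Figure D4:**
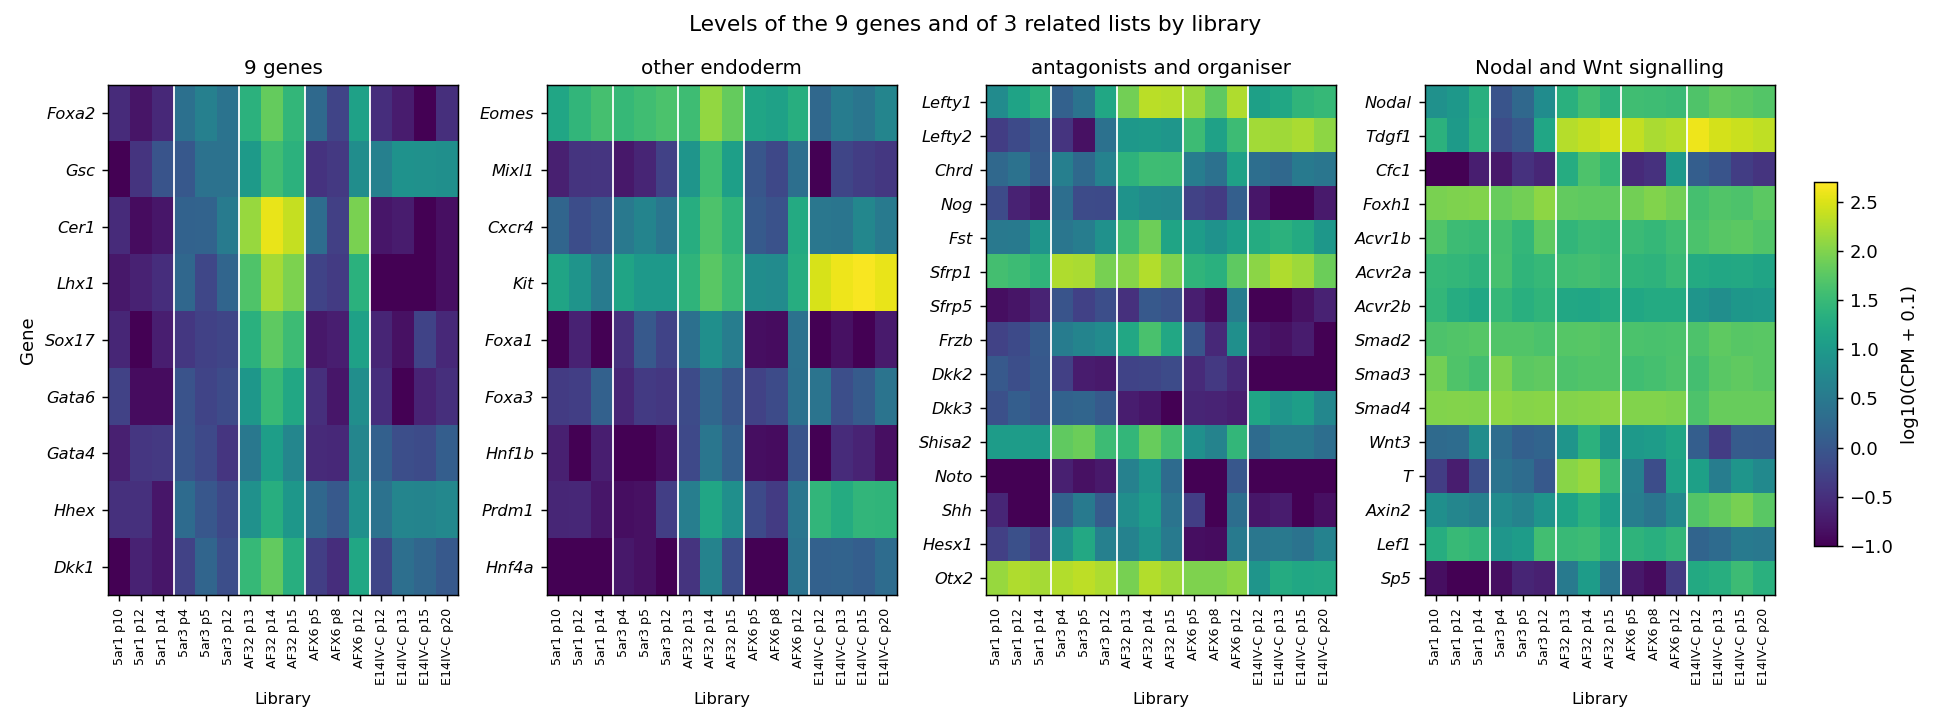
Colour gives log10(CPM + 0.1) of each gene (rows) in each library (columns), for the 9 genes and for the tested genes of 3 related lists, with white lines between the cell lines. Most of the 9 genes are brightest in AF32 and next in AFX6 p12. For Gsc, however, ES p13, p15 and p20 are above AFX6 p12, and for Gata4 AFX6 p12 is above AF32 p13. Nodal, Foxh1 and the Smad genes are of like brightness in all 3 AFX6 libraries.

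The genes whose profile was most like each member's were found among 18546 genes over the 12 FS and EpiSC libraries, by the root mean square difference of centred log2 CPM. The measure is descriptive, since all genes share libraries and depth. The closest matches were Asb4 to Dkk1 (0.48), Adgrf5 to Gata4 (0.60), Hs3st3b1 to Gata6 (0.63), Enkur to Hhex (0.66), 9030622O22Rik to Foxa2 (0.70), Spink1 to Sox17 (0.71), Samd3 to Lhx1 (0.78), Pga5 to Cer1 (0.87) and Foxa1 to Gsc (0.89). 9030622O22Rik is a long noncoding RNA gene 2.67 kb from Foxa2, and was at 3.79, 6.86 and 3.82 CPM in AF32 p13, p14 and p15 and 1.92 CPM in AFX6 p12. Cfc1 was among the 3 nearest genes of Cer1, Lhx1 and Sox17. Among the members themselves Lhx1 and Sox17 were nearest (0.71) and Cer1 and Gata4 furthest apart (2.45).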

How the data were processed

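Bulk RNA was sequenced from 16 libraries. Trizol lysates were purified on columns and a directional kit was used for sequencing, per the labels' protocols. The submitters' processing notes name Trim Galore, TopHat2 2.1.0, featureCounts 1.5.0 and mm10; their roles, the annotation release and the strand setting are not given in the sources used here. The authors deposited raw counts per gene, and 6 columns matching no sample were not used. Groups followed the labelled culture condition. The 9 genes, the lists and the rule for named genes (the members, list genes, and the 3 genes most alike in profile to each member) were chosen with earlier results of these data known.

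Counts were filtered with filterByExpr, scaled by TMM and tested with edgeR 4.0.16 (robust quasi-likelihood, R 4.3.3) on all 16 libraries, for 7 comparisons. The model had 1 mean per condition, and 1 mean per line where the FS lines were compared. Benjamini-Hochberg adjustment ran over all 18555 tested genes, and called means an adjusted p under 0.05. Fold changes are log2, first group minus second. Where no library of a group exceeded 3 counts, a fold against it is a lower bound. Exon lengths and positions came from GENCODE M21 (GRCm38), and all 9 genes matched by identifier. A prior count of 2 was used for profile likeness. Wilson intervals (95%) cover counting error only. DESeq2 1.42.0, other scalings and filters, a test against a log2 change of 1, single lines and leaving out each library were alternatives. The procedure was tested on simulated counts.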

Additional observations from a re-analysis of the deposited data

Results flagged for a closer look

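In ES, Gsc was lower in E14IV-C p12 (4.01 CPM) than in the other 3 libraries (6.93 to 7.5 CPM), by a gap large against the whole range of the group. That library also had the highest share of mt-Rnr2, 38.1% against 17.7% to 18.97% in the other 3, and the part of this in the value was not tested. Lhx1 in ES stood out in E14IV-C p20 (0.0425 CPM), which is 1 count against 0 in the other 3 libraries and within the floor of 3 counts. Chance flags about 1 in 20 groups under this rule if values spread normally. With 1 count against 0 the gap is always the whole range, so that rate does not hold for Lhx1.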

How the results depend on the processing

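Under every alternative run, FS stayed below EpiSC_AF by the test for all 9 genes, against 3.68% to 20.7% of all tested genes called. Of the fold changes of the 9 genes, 16 values reversed, as follows. For FS against ES, Sox17 was -0.18 with one mean per line and -1.32 with 5ar1 only, and ran from -0.189 to 0.967 when leaving out each library. Leaving out each library in turn, EpiSC_AFX against ES gave Sox17 -1.20 to 5.18, Gata4 -2.37 to 1.47, Dkk1 -2.14 to 2.64 and Hhex -1.73 to 0.0373. FS against EpiSC_AFX then gave Foxa2 -2.32 to 0.43, Gsc -1.62 to 1.96, Lhx1 -4.13 to 0.73, Sox17 -4.79 to 1.38, Gata6 -3.16 to 1.44, Gata4 -2.71 to 1.13 and Dkk1 -4.41 to 0.57. In these last 7 and in Sox17, Gata4 and Dkk1 against ES, the reversed value was the one without AFX6 p12, and in Hhex the one without AFX6 p8.

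Members called in FS against ES (3) were 5 with DESeq2's Wald test (64.4%) and 1 in a test against a log2 change of 1 (31.3%). Percentages in brackets here are the shares of all tested genes called in the same fit, in either direction. In EpiSC_AFX against ES (5) the members called were 1 when only the groups compared were fitted (55.7%). They were 3 to 6 when leaving out each library (47% to 54.5%). In FS against EpiSC_AFX (3) they were 0 with no low-count filter (2.47%) and 0 against a log2 change of 1 (0.852%). They were 0 with only the groups compared (3.23%) and 6 with one mean per line (7.7%). With 5ar1 only they were 5 (4.1%), with 5ar3 only 0 (9.67%), and 0 to 4 when leaving out each library (1.98% to 6.62%). In EpiSC_AFX against EpiSC_AF (0) they were 0 to 9, the 9 without AFX6 p12 (4.83%) and 0 otherwise (0.55% to 13.6%). In 5ar1 against 5ar3 (1) they were 0 with no low-count filter (2.34%), 3 with DESeq2 (6.97%) and 0 against a log2 change of 1 (0.69%). They were 3 with only the groups compared (2.25%), and 0 to 1 when leaving out each library (1.5% to 8.07%). Where a setting tests more genes or fewer libraries it does so by construction, and otherwise the cause was not tested.

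Scaling by total counts shifted the median of all genes by up to 0.40 (FS against ES), and moved the split of calls there from 6102 higher and 5543 lower to 7935 and 3322. For EpiSC_AF against ES it went from 5515 and 5005 to 6504 and 3305, for EpiSC_AFX against ES from 5280 and 4870 to 6087 and 3319, and for FS against EpiSC_AFX from 537 and 390 to 529 and 199. For FS against EpiSC_AF it went from 1455 and 1634 to 1341 and 1066, and for 5ar1 against 5ar3 from 345 and 375 to 278 and 222, so the shares of all genes called lower went from 8.81% to 5.75% and from 2.02% to 1.2%. Over all genes, a test against a log2 change of 1 called 5810, 5275, 5064, 682, 158, 102 and 128 genes against 11645, 10520, 10150, 3089, 927, 791 and 720, in the order FS and the EpiSC groups against ES, FS against EpiSC_AF and EpiSC_AFX, EpiSC_AFX against EpiSC_AF, and the FS lines. DESeq2 called 1639, 1383 and 1292 in the last 3. Only the groups compared gave 557, 2276 and 375 there, and for FS against EpiSC_AFX one mean per line gave 1429 and 5ar3 only 1765. Leaving out single libraries gave 1799 to 3464 (FS against EpiSC_AF), 380 to 1221 (FS against EpiSC_AFX), 351 to 924 (EpiSC_AFX against EpiSC_AF) and 286 to 1549 (the FS lines). No paired analysis was possible because replicate numbers follow accession order only and the columns carry passages. Members under about 10 counts in FS, ES, AFX6 p5 and p8 are limited by depth.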
